A study of Mus musculus with 8 samples.

Results

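The regulatory T cell signature genes described here are 10 genes by which regulatory T cells are commonly recognised: Foxp3, Ikzf2, Gata3, Il2ra, Ctla4, Icos, Tnfrsf18, Tnfrsf4, Klrg1 and Il10. They were chosen by name, as the rows of the deposited array table whose platform annotation names that gene alone, and each had exactly 1 such row, among 19752 genes named in this way. The samples were whole tibialis anterior muscles, a fast muscle of the lower leg, of male C57BL/6 mice, injured by pressing a metal probe cooled in liquid nitrogen on the muscle for 8 seconds and taken on day 8. The 4 ST2 flox samples came from mice with Foxp3-Cre and a floxed ST2 gene, and the 4 ST2 WT samples from mice with Foxp3-Cre and an unmodified ST2 gene, so both groups carry the Cre driver. Age is 10 weeks in the sample labels and 2 months in the description of the series. Neither says whether the samples of a group were separate animals or whether both ST2 alleles were floxed, so the p-values cover only the variation among these samples, part of which may be technical.

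Regulatory T cells are CD4 T cells that restrain other immune cells and depend on the transcription factor Foxp3. In injured muscle they gather during repair and are known to act on satellite cells, the stem cells of muscle, as well as on macrophages. ST2 is a receptor that binds interleukin-33, a cytokine set free by damaged cells, and Foxp3-Cre is meant to remove a floxed gene in cells that express Foxp3. Many signature genes are shared: Ctla4, Icos, Il2ra, Tnfrsf4 and Tnfrsf18 are also switched on in activated conventional T cells, Klrg1 marks subsets of natural killer cells and effector T cells, Gata3 drives type 2 lymphocytes and is used by skin epithelium, and macrophages can make Il10. In whole muscle, fewer cells of a type and less RNA per cell cannot be told apart. The floxed gene is not analysed here, so the arrays give no direct check of the deletion.

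Promoter windows are shown for the gene that defines the cells, Foxp3, for Gata3, the signature gene whose groups did not overlap, and for Il2ra, which had the largest positive difference. Each holds the 250 bases before a RefSeq gene start (assembly GRCm38.p6), written 5′ to 3′ on the gene's strand. Foxp3 has windows at an upstream and a downstream start. Capitals mark matches on either strand to any of 4 short patterns. The pattern searched for GATA factors was AGATAA. For forkhead factors, to which Foxp3 belongs, it was GTAAACA. For the core promoter element near many gene starts it was TATAAA. For STAT factors, which act below cytokine receptors, it was TTCNNNGAA.
Foxp3 upstream start, chrX:7579426-7579675, plus strand: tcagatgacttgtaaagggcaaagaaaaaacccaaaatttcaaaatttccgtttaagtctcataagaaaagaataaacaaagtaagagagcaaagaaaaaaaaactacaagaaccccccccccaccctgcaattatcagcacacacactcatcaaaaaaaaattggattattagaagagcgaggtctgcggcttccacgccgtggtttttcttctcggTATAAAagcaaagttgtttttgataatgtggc
Foxp3 downstream start, chrX:7580233-7580482, plus strand: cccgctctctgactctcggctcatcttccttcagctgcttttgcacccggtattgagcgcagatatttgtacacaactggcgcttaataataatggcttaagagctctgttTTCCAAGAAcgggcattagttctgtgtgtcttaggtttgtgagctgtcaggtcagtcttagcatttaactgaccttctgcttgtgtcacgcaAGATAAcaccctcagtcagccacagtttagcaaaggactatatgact
Gata3, chr2:9878601-9878850, minus strand: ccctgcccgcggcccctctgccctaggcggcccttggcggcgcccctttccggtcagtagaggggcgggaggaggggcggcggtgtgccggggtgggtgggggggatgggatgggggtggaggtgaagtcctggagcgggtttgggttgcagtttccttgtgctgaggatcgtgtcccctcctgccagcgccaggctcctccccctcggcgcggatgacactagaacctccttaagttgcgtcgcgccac
Il2ra, chr2:11642542-11642791, plus strand: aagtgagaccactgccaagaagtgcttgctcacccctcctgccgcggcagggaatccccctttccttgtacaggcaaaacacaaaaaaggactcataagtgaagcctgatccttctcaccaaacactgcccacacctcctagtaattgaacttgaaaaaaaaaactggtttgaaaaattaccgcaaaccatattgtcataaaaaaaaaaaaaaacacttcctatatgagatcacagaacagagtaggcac

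The upstream Foxp3 window held a core element match whose first base lay 32 bases before the start, and the downstream window held a GATA match at 47 bases and a STAT match at 139 bases. The Gata3 and Il2ra windows held none of the 4 letter patterns. Among all 32851 windows of the same length, 9.99% held the GATA pattern, 3.17% the forkhead pattern, 12.4% the core element pattern and 7.02% the STAT pattern. A match is a description of the letters and not a binding site. Sequences were at hand for 6 of the 10 genes, and those of Ctla4, Tnfrsf18 and Tnfrsf4 are not shown. In the same assembly's gene table, Ctla4 and Icos are direct neighbours on chromosome 1, with 0 protein-coding genes between them, as are Tnfrsf18 and Tnfrsf4 on chromosome 4.

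Each sample was measured on 1 array, and values are base 2 logarithms of the deposited intensity. The median intensity per array lay between 185 and 189. The tissue's own markers were bright, with Acta1, the actin of skeletal muscle, at log2 levels of 13.73 to 13.85 in ST2 flox muscle and 13.65 to 13.86 in ST2 WT muscle. The rows of T cell genes were much dimmer. Cd3e, a chain of the T cell receptor complex, lay at 7.36 to 7.48 in ST2 flox and 7.29 to 7.40 in ST2 WT muscle. The coreceptor Cd4 lay at 7.11 to 7.47 in ST2 flox and 7.05 to 7.22 in ST2 WT muscle. The means of Cd3e (7.38) and Cd4 (7.23) lay above the lower olfactory receptor mark of background described below (6.69). Both lay under the higher mark (7.44), so part of their intensity may be background. Of the 15 genes of the T cell list described below, 1 was near background, namely Cd3d (mean 5.83).

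Of the 10 signature genes, 6 lay near the background of the arrays, against 30.9% of all genes. As a mark of background, the 1027 olfactory receptor genes on the array were used, on the assumption that muscle expresses few of them. Their 95th percentile was a log2 level of 6.69 and their 99th percentile 7.44. The means over the 8 samples of Il10 (5.04), Ctla4 (6.06), Klrg1 (6.09), Gata3 (6.21), Il2ra (6.32) and Icos (6.66) fell at or below the 95th percentile, and those of Tnfrsf18 (7.05), Foxp3 (7.36), Tnfrsf4 (7.45) and Ikzf2 (8.55) above it. Icos lay just inside the mark and Tnfrsf18 was the nearest gene outside it. The mean of Il10 equalled the median of the olfactory receptor genes (5.04), while Foxp3 was brighter than 98.7% of them. Probes differ in brightness for the same amount of RNA, so this mark is rough and the levels do not rank the genes by abundance. With vomeronasal and bitter taste receptor genes as the mark, only Ctla4 and Il10 lay at or below it, against 19.2% of all genes. With the 99th percentile of the olfactory receptor genes Foxp3 and Tnfrsf18 joined the 6, against 46.8% of all genes. Only Ikzf2 and Tnfrsf4 thus lay above every mark used, Tnfrsf4 (7.45) barely so. A level above a mark does not show which cells the transcript came from.

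**Figure D1:**
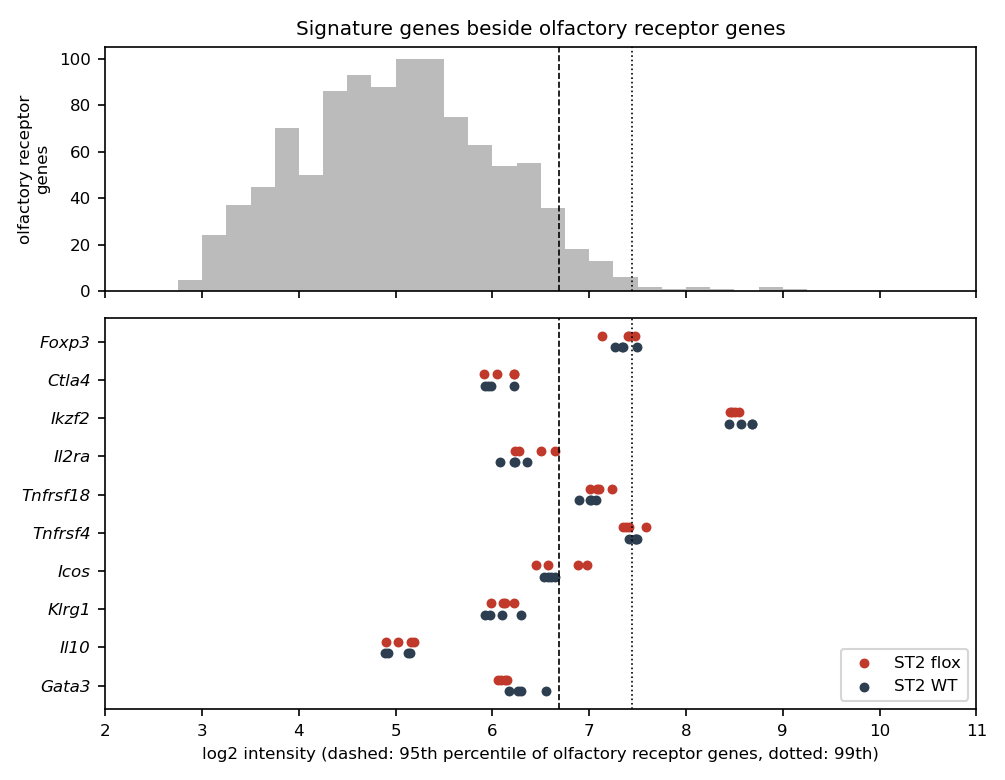
Upper panel, the number of olfactory receptor genes by mean log2 intensity. Lower panel, the log2 intensity of each signature gene in each of the 4 ST2 flox samples (red) and 4 ST2 WT samples (dark blue), with the 95th percentile of the olfactory receptor genes dashed and the 99th dotted. Ikzf2 lies to the right of both lines in every sample, and Il10, Ctla4, Klrg1 and Gata3 lie to the left of both in every sample.

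The comparison asked whether the signature differed between mice with Foxp3-Cre and floxed ST2 and mice with Foxp3-Cre and unmodified ST2. None of the 10 genes passed the test. In the limma fit over 19752 genes, 0 genes had a Benjamini-Hochberg adjusted p under 0.05 (0% of the genes), and 813 genes (4.12%) had an unadjusted p under 0.05. Among the signature genes 1 of 10 had such an unadjusted p, namely Gata3. The mean was higher in ST2 flox muscle for 6 of the 10 genes, against 44.1% of all genes, and the median difference was 0.04 log2, against -0.01 over all genes. Differences are ST2 flox minus ST2 WT, and all standard errors, 95% intervals and adjusted p-values of single genes below come from this fit.

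**Figure D2:**
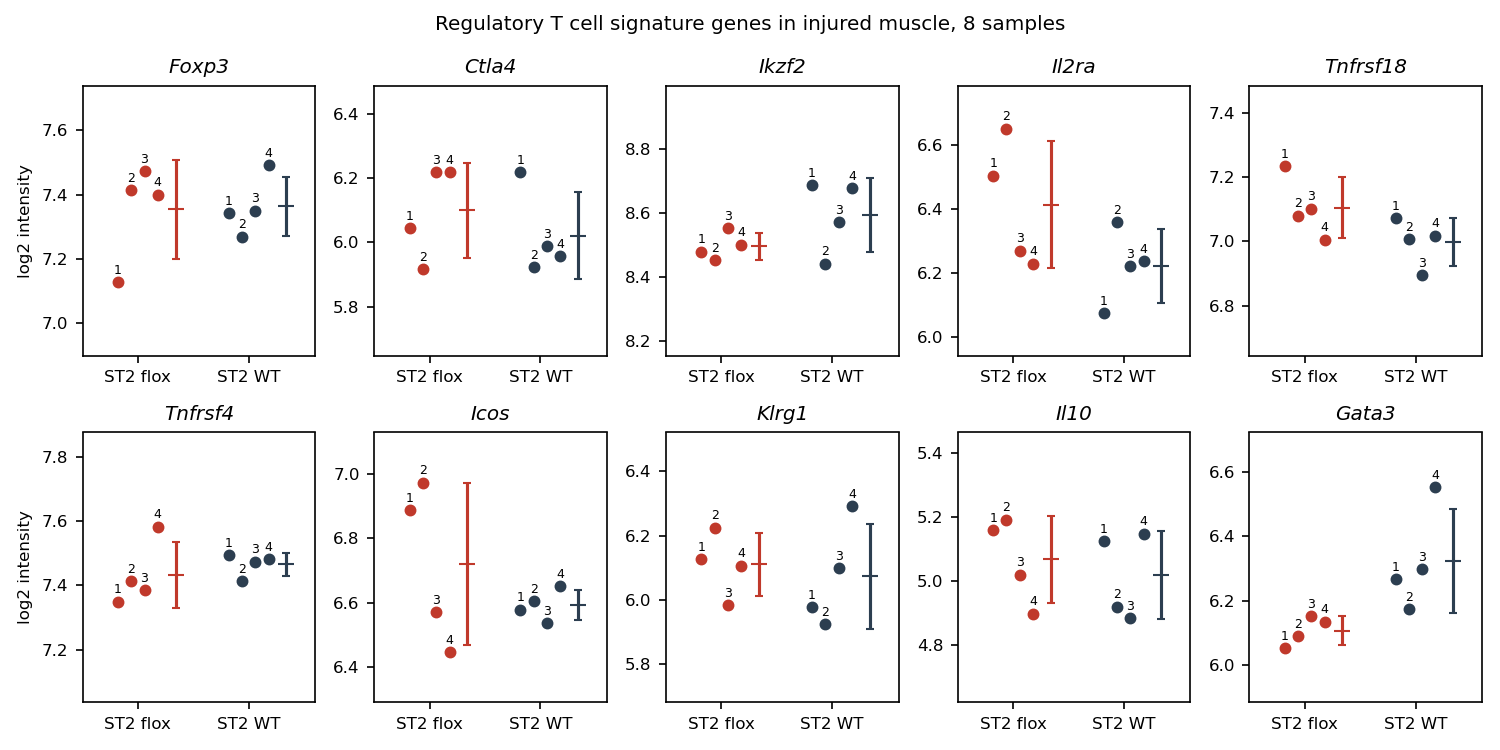
Log2 intensity of each signature gene in the 4 ST2 flox samples (red) and the 4 ST2 WT samples (dark blue), numbered as in the labels, with the mean and SD of each group beside its points. Every panel spans the same range of log2 units. Only the Gata3 groups do not overlap, and Il2ra and Icos are high in ST2 flox samples 1 and 2.

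Of the transcription factors, the row of Foxp3, which defines the lineage, had nearly the same mean intensity in both groups. Its log2 level was 7.13, 7.41, 7.47 and 7.40 in ST2 flox samples 1 to 4, against 7.34, 7.27, 7.35 and 7.49 in ST2 WT samples 1 to 4. The lowest sample was ST2 flox 1 and the highest ST2 WT 4, and among the other 6 samples the 3 ST2 flox samples lay above the 3 ST2 WT samples. The group means were 7.35 ± 0.15 in ST2 flox and 7.36 ± 0.09 in ST2 WT (SD, n = 4 each). The ratio was 0.994, with a 95% interval of 0.874 to 1.13 (limma adjusted p 0.988). The Foxp3 mean lay under the 99th percentile of the olfactory receptor genes. The interval therefore describes the intensity of the row, part of which may be background, and less surely the transcript. The sign of the difference followed single arrays: it was -0.01 over all samples, 0.07 without ST2 flox sample 1 and -0.05 without ST2 flox sample 3, and it was 0.01 after quantile normalization.

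Ikzf2 encodes Helios, a zinc-finger factor of regulatory T cells that is also used by other lymphocytes. Its level was 8.48, 8.45, 8.55 and 8.50 in ST2 flox samples 1 to 4, against 8.69, 8.44, 8.57 and 8.68 in ST2 WT samples 1 to 4. The ST2 flox samples were tightly grouped within 0.10 log2, and ST2 WT sample 2 lay just below all of them. The difference was -0.10 (SE 0.07), a ratio of 0.935 with a 95% interval of 0.842 to 1.04 (limma adjusted p 0.900). Without ST2 WT sample 2 it was -0.15 (limma unadjusted p 0.0435).

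Gata3, the factor of type 2 lymphocytes that regulatory T cells of tissues also use, was the signature gene with the smallest p. Its level was 6.05, 6.09, 6.15 and 6.13 in ST2 flox samples 1 to 4, against 6.27, 6.17, 6.30 and 6.55 in ST2 WT samples 1 to 4. Each ST2 flox sample lay below every ST2 WT sample, with a gap of 0.02 log2 between the nearest samples and ST2 WT sample 4 far above the rest. Over all genes, 218 (1.10%) had every ST2 flox sample below every ST2 WT sample. The Gata3 difference was -0.22 (SE 0.08), a ratio of 0.861 with a 95% interval of 0.761 to 0.974. Its limma unadjusted p was 0.0221 and its adjusted p 0.900, and the exact two-sided permutation p over the 70 assignments of the labels was 0.0286, the smallest such a test can give, or 0.921 after adjustment over all genes. Gata3 was near background in every sample.

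Skin epithelium also uses Gata3, and skin transcripts stood apart in 1 library. The mean centred level of 14 keratinocyte genes, a list chosen after this was known, was 1.02 in ST2 WT sample 4 and between -0.32 and 0.08 in the other 7 samples. The mean was lower in ST2 flox muscle for 14 of 14 of these genes, against 11034 of all 19752 genes. These means include ST2 WT sample 4. The list levels were -0.09, -0.13 and -0.14 in ST2 WT samples 1 to 3, within the range of -0.32, -0.28, -0.15 and 0.08 in ST2 flox samples 1 to 4. Of the 14 genes, 4 were near background. The summed intensity of the list was 1709.6 to 2189 in ST2 flox and 1903 to 4263 in ST2 WT muscle. Without ST2 WT sample 4 the Gata3 difference was -0.14 (SE 0.07, limma unadjusted p 0.0605, adjusted p 0.940). With the keratinocyte list as a covariate it was -0.13 (SE 0.07, limma unadjusted p 0.0770). The part of skin RNA in the Gata3 difference was not tested further.

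Il2ra, the alpha chain that gives the interleukin-2 receptor its high affinity, had the largest positive difference of the set. Its level was 6.50, 6.65, 6.27 and 6.23 in ST2 flox samples 1 to 4, against 6.07, 6.36, 6.22 and 6.24 in ST2 WT samples 1 to 4. ST2 flox samples 1 and 2 lay above every ST2 WT sample, and ST2 flox samples 3 and 4 among them. The difference was 0.19 (SE 0.10), a ratio of 1.14 with a 95% interval of 0.979 to 1.33 (limma unadjusted p 0.0837, adjusted p 0.900). It was 0.11 without ST2 flox sample 2.

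Icos, a costimulatory receptor of the CD28 family, showed the same pair of samples. Its level was 6.89, 6.97, 6.57 and 6.45 in ST2 flox samples 1 to 4, against 6.58, 6.61, 6.54 and 6.65 in ST2 WT samples 1 to 4. ST2 flox samples 1 and 2 were the only samples above the background mark, ST2 flox sample 4 was the lowest of all 8, and the ST2 WT samples lay within 0.11 log2 of each other. The difference was 0.13 (SE 0.11), a ratio of 1.09 with a 95% interval of 0.925 to 1.29 (limma adjusted p 0.900), and it was 0.04 without ST2 flox sample 2. Without ST2 flox sample 4 the difference was 0.22 for Icos (limma unadjusted p 0.0378) and 0.25 for Il2ra (limma unadjusted p 0.0258), in a fit where 19.7% of all genes had an unadjusted p under 0.05 and neither gene passed after adjustment (adjusted p 0.229 for Icos and 0.203 for Il2ra).

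Ctla4, the inhibitory receptor of the same family and the chromosomal neighbour of Icos, did not share that pattern. Its level was 6.04, 5.92, 6.22 and 6.22 in ST2 flox samples 1 to 4, against 6.22, 5.92, 5.99 and 5.96 in ST2 WT samples 1 to 4. The samples high in Icos and Il2ra were not high in Ctla4, and the groups overlapped over nearly their whole range. The Ctla4 difference was 0.08 (SE 0.09), a ratio of 1.06 with a 95% interval of 0.920 to 1.21 (limma adjusted p 0.909).

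The 2 receptors of the tumour necrosis factor family were not high in the same samples. Tnfrsf18, which encodes GITR, was at 7.23, 7.08, 7.10 and 7.00 in ST2 flox samples 1 to 4, against 7.07, 7.01, 6.89 and 7.02 in ST2 WT samples 1 to 4. ST2 flox samples 1 to 3 lay above every ST2 WT sample and ST2 flox sample 4 among them. Its difference was 0.11 (SE 0.07), a ratio of 1.08 with a 95% interval of 0.971 to 1.19 (limma adjusted p 0.900), and 0.06 without ST2 flox sample 1. Tnfrsf4, which encodes OX40, was at 7.35, 7.41, 7.38 and 7.58 in ST2 flox samples 1 to 4, against 7.49, 7.41, 7.47 and 7.48 in ST2 WT samples 1 to 4. Here ST2 flox sample 4 was the highest and ST2 flox samples 1 and 3 the lowest. The difference was -0.03 (SE 0.07), a ratio of 0.977 with a 95% interval of 0.885 to 1.08 (limma adjusted p 0.944).

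Klrg1, an inhibitory lectin-like receptor of mature regulatory T cells that binds cadherins, ranged from 5.98 to 6.22 in ST2 flox muscle and from 5.92 to 6.29 in ST2 WT muscle. Its difference was 0.04 (SE 0.09), a ratio of 1.03 with a 95% interval of 0.897 to 1.17 (limma adjusted p 0.950). Il10, the suppressive cytokine, ranged from 4.90 to 5.19 in ST2 flox muscle and from 4.88 to 5.15 in ST2 WT muscle. Its difference was 0.05 (SE 0.09), a ratio of 1.03 with a 95% interval of 0.904 to 1.18 (limma adjusted p 0.939). For both genes the ranges of the groups overlapped widely. For these and the other rows near background, an interval describes the intensity of the row, which holds background light as well as the transcript, and says less about the transcript itself.

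**Figure D3:**
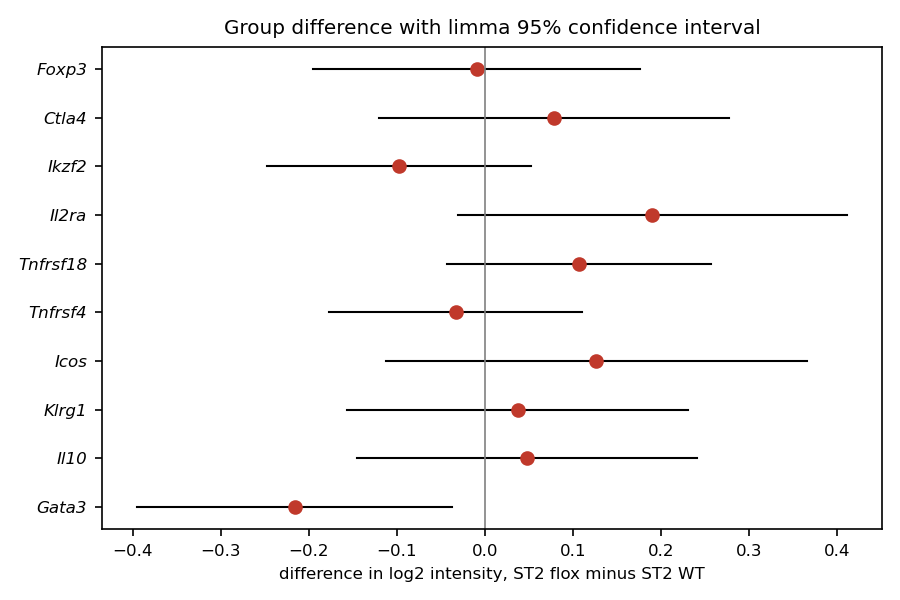
Difference in log2 intensity, ST2 flox minus ST2 WT, for each signature gene (point) with its limma 95% confidence interval (line). The interval of Gata3 lies below 0 and those of the other 9 genes include 0.

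The signature genes as a set were not high or low in the same samples, although some pairs moved together and others in opposite directions. Over the 8 samples the Pearson r of a pair ran from -0.748 (Ikzf2 and Il2ra) to 0.868 (Il2ra and Icos). ST2 flox sample 2 was the highest sample for 3 genes (Il2ra, Icos and Il10) and ST2 WT sample 4 for 3 others (Foxp3, Klrg1 and Gata3). ST2 flox sample 1 was at once the highest sample for Tnfrsf18 and the lowest for Foxp3, Tnfrsf4 and Gata3. The range over all 8 samples ran from 0.23 log2 for Tnfrsf4 to 0.57 for Il2ra.

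**Figure D4:**
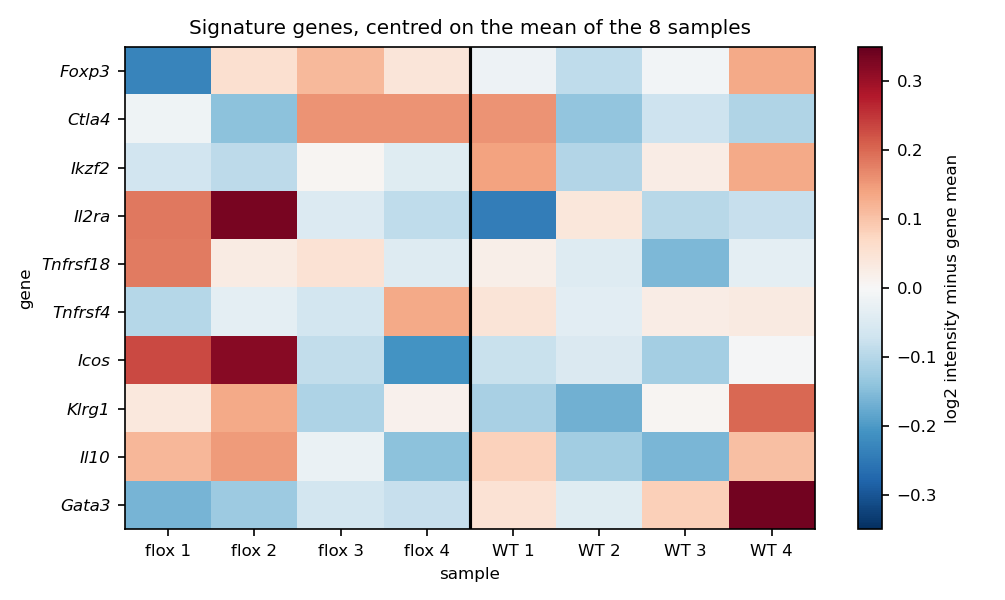
Log2 intensity of each signature gene (rows) in each sample (columns, ST2 flox left of ST2 WT), after subtraction of the gene's mean over the 8 samples. Il2ra and Icos are darkest red in ST2 flox sample 2, Gata3 in ST2 WT sample 4.

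The muscles differed in their macrophage and T cell transcripts, and the signature genes were set against both. The level of a list is the mean over its genes of log2 values centred per gene. The macrophage list had 16 of 18 genes with a higher mean in ST2 flox, against 44.1% of all genes. Of these 18, 0 were near background. Its levels were 0.30, 0.36, 0.03 and -0.37 in ST2 flox samples 1 to 4, against -0.12, 0.04, -0.15 and -0.09 in ST2 WT samples 1 to 4, and its summed intensity was 13201 to 21442 in ST2 flox and 14877 to 17857 in ST2 WT muscle. Its range within the ST2 flox group was thus wider than its range within the ST2 WT group. The T cell list had 10 of 15 genes with a higher mean in ST2 flox, with 1 gene near background (Cd3d). Its levels were 0.07, 0.18, 0.04 and -0.03 in ST2 flox samples 1 to 4 and -0.08 to -0.05 in ST2 WT muscle, and its summed intensity was 2364 to 2944 in ST2 flox and 2260 to 2367 in ST2 WT muscle. Cd3g had by far the largest difference of this list (0.85, against a list median of 0.06) and weighed heavily in its level. The level without Cd3g was not computed, so it is a rough measure of T cell transcripts.

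Icos followed the macrophage list across the 8 samples. Its Pearson r was 0.936 (exact permutation p 0.00141, 0.0335 after adjustment over all genes) and its Spearman rho 0.881 (exact permutation p 0.00724, adjusted p 0.0897). The r was 0.873 without the 2 samples farthest from the median list level, 0.950 within the ST2 flox samples and 0.459 within the ST2 WT samples. Such a relation was common: 32.2% of all genes had an unadjusted exact p under 0.05 for r with this list, and 8.84% an adjusted p under 0.05.

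Il2ra and Tnfrsf4 related to the macrophage list with opposite signs, without passing the adjustment. For Il2ra r was 0.843 (exact permutation p 0.00898, adjusted p 0.0652) and rho 0.905 (exact permutation p 0.00456, adjusted p 0.0798), with r of 0.890 without the 2 farthest samples, 0.887 within ST2 flox and 0.729 within ST2 WT. For Tnfrsf4 r was -0.863 (exact permutation p 0.00585, adjusted p 0.0551) and rho -0.762 (exact permutation p 0.0368, adjusted p 0.178), with r of -0.920 without the 2 farthest samples, -0.859 within ST2 flox and -0.894 within ST2 WT. For Foxp3 r was -0.364 (exact permutation p 0.374, adjusted p 0.539) and rho -0.143 (exact permutation p 0.752, adjusted p 0.857), with r of -0.694 without the 2 farthest samples. The other 6 genes had r between -0.492 and 0.659, and the smallest exact p of r among them was 0.0786, for Tnfrsf18.

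With the T cell list, no relation of a signature gene passed the adjustment over all genes. The largest r were those of Il2ra (0.839, exact permutation p 0.0102, adjusted p 0.219; rho 0.619, exact permutation p 0.115) and Icos (0.804, exact permutation p 0.0227, adjusted p 0.242; rho 0.357, exact permutation p 0.389). Both rested on ST2 flox samples 1 and 2, without which r was 0.126 for Il2ra and -0.246 for Icos. Gata3 had a rho of -0.929 with this list (exact permutation p 0.00223, adjusted p 0.585) and an r of -0.648 (exact permutation p 0.0827, adjusted p 0.333). Every ST2 flox sample was above every ST2 WT sample in the list and below it in Gata3, so this rho largely restates the group order. The r of Gata3 was -0.573 without the 2 farthest samples, -0.500 within ST2 flox and -0.693 within ST2 WT. For Foxp3 r was -0.0669 (exact permutation p 0.866, adjusted p 0.933). With both lists, 20 such relations were computed, and 17.3% of all genes had an unadjusted exact p under 0.05 for r with the T cell list.

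**Figure D5:**
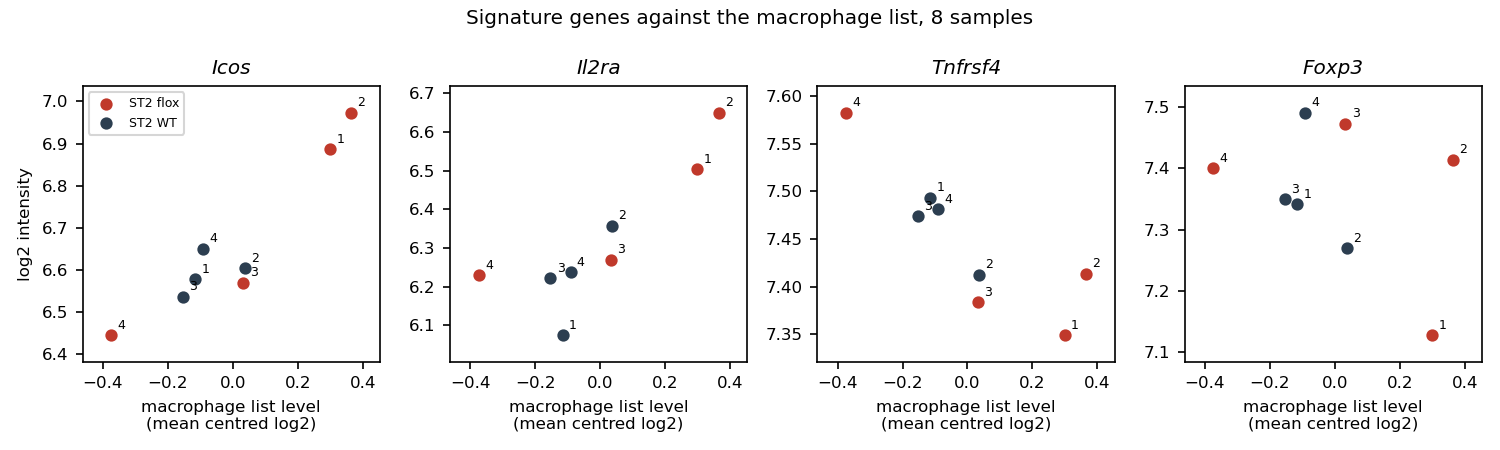
Log2 intensity of Icos, Il2ra, Tnfrsf4 and Foxp3 against the mean centred log2 level of the macrophage list, with ST2 flox samples in red and ST2 WT samples in dark blue, numbered as in the labels. Icos and Il2ra are highest in ST2 flox samples 1 and 2 at the right, Tnfrsf4 is highest in ST2 flox sample 4 at the left, and Foxp3 shows no such order.

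With the macrophage list as a covariate, the difference of Icos was 0.02 and that of Il2ra 0.10, against 0.13 and 0.19 without it. Gata3 differed by -0.19 in that fit (SE 0.08, limma unadjusted p 0.0398, adjusted p 1.00), and by -0.16 with the T cell list as a covariate (SE 0.13, limma unadjusted p 0.225, adjusted p 1.00). The part of macrophage content in these differences was not tested otherwise.

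For the 4 signature genes above the background mark, the genes most alike over the 8 samples were ranked by Pearson r among 13647 other genes above the mark. For Foxp3 they were Efna2 (r = 0.981), Opn3 (0.968) and Uba3 (0.954). For Ikzf2 they were Sim2 (0.952), Lama3 (0.948) and Prmt7 (0.929), and for Tnfrsf18 Trp53bp1 (0.973), Sfswap (0.971) and Mga (0.969). For Tnfrsf4 they were Slc6a7 (0.981), Pde6g (0.971) and Fam25c (0.966). None of these 12 genes belongs to a lymphocyte list used here. Those lists hold only 6 to 15 genes each, so their absence among the 12 says nothing about lymphocytes. With 8 samples and so many genes, values this high describe a ranking and nothing more.

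Partners of the signature genes in the interleukin-2 pathway mostly had a lower mean in ST2 flox muscle, with none past the test. Of 11 genes measured, 3 had a higher mean, against 44.1% of all genes, and the median difference was -0.03, against -0.01 over all genes. Cish and Socs2, inhibitors of cytokine signalling that STAT5 induces, were the 2 of 11 with an unadjusted p under 0.05, against 4.12% of all genes. Cish was at 7.93, 7.36, 8.27 and 7.70 in ST2 flox samples 1 to 4, against 8.66, 8.67, 7.59 and 8.93 in ST2 WT samples 1 to 4. ST2 WT sample 3 lay with the lower ST2 flox samples, so the groups overlapped. The difference was -0.65 for Cish (SE 0.27, limma adjusted p 0.900) and -0.26 for Socs2 (SE 0.11, limma adjusted p 0.900). Which cells of the whole muscle supplied these transcripts, and whether interleukin-2 acted on them, was not tested. The cytokine Il2 itself was near background, with a difference of -0.12 (SE 0.08).

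In the interleukin-10 pathway 7 of 8 genes had a higher mean in ST2 flox, against 44.1% of all genes. The median difference was 0.08, and none passed the test. Il10ra, the ligand-binding receptor chain, was at 8.66, 8.73, 8.44 and 8.19 in ST2 flox samples 1 to 4 and at 8.11 to 8.28 in ST2 WT muscle, a difference of 0.31 (SE 0.11, limma unadjusted p 0.0170). ST2 flox samples 1 to 3 lay above the ST2 WT samples and ST2 flox sample 4 among them. ST2 flox samples 1 and 2 were also the highest in the macrophage list, whose part in this was not tested. The kinase Tyk2 differed by 0.16 (SE 0.08) and Stat3, the transcription factor downstream of the receptor, by 0.12 (SE 0.08).

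Among ligands and adaptors of the costimulatory receptors, 9 of 13 genes had a higher mean in ST2 flox, against 44.1% of all genes. The median difference was 0.04. Traf1, an adaptor of tumour necrosis factor receptors, was higher in all 4 ST2 flox samples (6.01 to 6.24) than in any ST2 WT sample (5.93 to 5.97), where 196 of all genes (0.992%) were so ordered. Its difference was 0.18 (SE 0.06, limma adjusted p 0.900), and it was near background. Cd80, a ligand of Ctla4 on antigen-presenting cells, differed by 0.32 (SE 0.18), and Cdh2, a cadherin bound by Klrg1, by 0.10 (SE 0.07).

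Of 26 other genes linked to regulatory T cells, 17 had a higher mean in ST2 flox, against 44.1% of all genes. The median difference was 0.04, and none passed the test. Tgfb1, a suppressive and matrix-inducing growth factor made by many cells, differed by 0.18 (SE 0.06). Its ST2 flox samples all lay above its ST2 WT samples, as for 196 of all genes (0.992%). Satb1, a chromatin organiser repressed by Foxp3, differed by -0.21 (SE 0.08), and Cd83, a marker of activated immune cells, by 0.25 (SE 0.09). These 3 had the smallest p in the list, each with a limma adjusted p of 0.900.

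Other cells that could supply signature transcripts were summarised by their lists. None of their genes passed the test either. Over all genes, 44.1% had a higher mean in ST2 flox and 30.9% were near background. Of the CD8 T cell genes 4 of 6 had a higher mean in ST2 flox (median difference 0.09, 5 near background), with Gzmk at 0.32 (SE 0.09), Cd8b1 at 0.21 (SE 0.13) and Cd8a at 0.13 (SE 0.08). Of the natural killer cell genes 5 of 9 were higher (median 0.10, 6 near background), with Klrd1 at 0.45 (SE 0.13), Nkg7 at 0.46 (SE 0.20) and Klrk1 at 0.27 (SE 0.14). Of 13 other genes of type 2 lymphocytes, a list without Gata3 and Klrg1, 7 were higher (median 0.00, 5 near background), with Il7r at 0.29 (SE 0.10), Arg1 at 0.35 (SE 0.16) and Gfi1 at -0.13 (SE 0.06).

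Of the B cell genes 4 of 7 had a higher mean (median 0.01), and of the dendritic and class II genes 11 of 12 (median 0.23), with Fscn1 at 0.27 (SE 0.09) and H2-Eb1 at 0.32 (SE 0.11). Of the muscle genes 8 of 15 were higher (median 0.02). Within the T cell list the smallest p belonged to Cd3g, at 7.63, 7.92, 7.36 and 6.27 in ST2 flox samples 1 to 4 and 6.32 to 6.60 in ST2 WT muscle, a difference of 0.85 (SE 0.28). It was followed by Il7r and by Cd4 at 0.20 (SE 0.08). Of the other chains of the same complex, Cd3e differed by 0.06 (SE 0.06) and Cd3d by -0.10 (SE 0.08), and 5 of the 15 genes had a lower mean in ST2 flox.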

How the data were processed

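Gene expression was measured in 4 ST2 flox and 4 ST2 WT muscles on Affymetrix Mouse Gene ST arrays. The authors deposited probeset intensity values on a linear scale (5.81 to 19080), made with RMA in Affymetrix Power Tools per the submitters' processing notes. RMA corrects background, normalizes between arrays and summarises probes, and it compresses changes of dim rows. The sources used here state no version and no later step.

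Values were taken to log2 without a pseudocount. Of 24922 rows, 21425 had 1 gene symbol in the platform annotation, 1399 several and 2098 none. The brightest row of each of 19752 genes was kept, with no filter on low values, so that all 10 signature genes were tested. At most 14 values were identical between any pair of arrays. The comparison used limma (version 3.58.1, R 4.3.3; group alone, Benjamini-Hochberg over all genes, threshold 0.05), which was tested on simulated data, and for single genes with exact two-sided permutation tests, also adjusted over all genes. An adjustment over the signature genes alone, which the plan named, is not given. Correlations over samples used exact permutation of the 40320 pairings. Precision is limited by there being 8 arrays.

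The members and lists were chosen with earlier results of these data known. Named genes are the 10 members, up to 3 genes of each fixed list by smallest unadjusted p, the 3 genes most like each member above background, and marker genes. For the B cell, dendritic, macrophage and muscle lists fewer are printed. Alternatives were other normalizations, filters, a pseudocount of 16, the mean of rows, another variance prior, a replicate block, list covariates and leaving out each sample. Same-numbered samples did not deviate together in every pair (r of -0.05, 0.28, 0.21 and -0.00 over genes for numbers 1 to 4), so the numbers were not taken as pairs.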

Additional observations from a re-analysis of the deposited data

How the results depend on the processing

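In limma 0 genes passed the adjusted threshold in every setting but 1, against 813 genes with an unadjusted p under 0.05 over all samples. The exception was the fit without ST2 flox sample 4, so the count over the fits without each sample was 0 to 2, the 2 being Cd3g and Ctsh. With the sample number as a replicate block 0 genes passed and 902 had an unadjusted p under 0.05, and no call on a signature gene changed. Without ST2 flox sample 2 the count at an unadjusted p under 0.05 was 384, without ST2 WT sample 1 it was 402, and without ST2 flox sample 4 it was 3899. With rows below the 50th percentile left out it was 344 of 10031 genes, and with the keratinocyte list as a covariate, chosen after seeing the data, 515.

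No signature gene passed the adjusted threshold under any alternative. Of 176 values for the 10 genes under alternatives, 161 kept their sign and 15 turned. The 161 include values that could not turn. The mean of rows, the other variance prior and the replicate block repeated the main difference of each signature gene. So did the filters for the genes they kept. With the T cell list as a covariate, whose level was higher in each ST2 flox sample than in any ST2 WT sample, Foxp3 was 0.0051, Il2ra -0.071, Tnfrsf4 0.055, Icos -0.20, Klrg1 -0.031 and Il10 -0.13. With the macrophage list as a covariate Foxp3 was 0.022, Tnfrsf4 0.011 and Il10 -0.0094. Foxp3 was 0.0069 with quantile normalization and 0.049 with the keratinocyte list. Over the fits without each sample Foxp3 ranged from -0.049 to 0.066 and Klrg1 from -0.013 to 0.11. For these turns the cause was not tested. Gata3 kept its sign in all 17 alternatives that could be run for it, from -0.27 (without ST2 WT sample 2) to -0.13 (with the keratinocyte list). Since its groups did not overlap, leaving out any sample could not turn its sign. The limma unadjusted p of Gata3 was 0.0836 with quantile normalization and 0.225 with the T cell list as a covariate. Filters at the 25th and 50th percentiles of rows left 5 and 1 of the 10 genes, so those fits give no value for the rest. The number of signature genes near background was 6, against 2 with vomeronasal and bitter taste receptor genes as the mark and 8 at the 99th percentile. The shares of all genes at these marks were 30.9%, 19.2% and 46.8%. Signal over background limits Il10, Ctla4, Klrg1, Gata3, Il2ra and Icos most.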
